A study of Homo sapiens with 30 samples.

Results

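The HLF spheroid screen under a menin inhibitor compared guide RNA abundance at day 28 with SNDX-5613 (3 HLF 3D libraries) against day 0. By the labels, the day 0 reference was the 3 HLF 3D Initial libraries, so that the comparison used 6 of the 30 libraries. All 737 genes of the screened library, out of 737 in the series, were taken. HLF is an established, poorly differentiated hepatocellular carcinoma line. For 3D growth it was kept as spheroids in medium with 0.75% methylcellulose on ultra-low attachment plastic. All cells, the Initial ones included, carried a lentiviral vector that expresses Cas9 together with 1 guide and had passed puromycin selection before the Initial libraries were taken, so any loss of guides before that point was not measured. The vehicle group received DMSO in place of the inhibitor and was also collected at day 28. The concentration of SNDX-5613 is 5 µM by the labels but lower by the methods text, so the dose is not settled here. The labels list a single group of Initial libraries for HLF 3D. The inhibitor and vehicle comparisons, however, carry a different number tag from that of untreated HLF 3D. Whether the labelled libraries or others were the reference of the inhibitor screen is not settled either. RNA was not measured in these libraries, so the labelled cell line could not be checked against marker genes.

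Menin, encoded by MEN1, is a scaffold protein that tethers the histone methyltransferase MLL1, encoded by KMT2A, to chromatin. Together with the subunits WDR5, RBBP5, ASH2L and DPY30, MLL1 and its relative KMT2B place methyl groups on lysine 4 of histone H3 at promoters. SNDX-5613, also known as revumenib, occupies the pocket of menin that binds MLL1 and separates the proteins. In a pooled knockout screen, a guide whose target is needed for multiplication becomes rarer over time, and a guide whose target restrains multiplication becomes more common. A screen done under an inhibitor therefore reads out what the cells need in its presence, including what they need without it. How far the complex was inhibited in these cells was not measured in the screen.

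Each gene had 1 Score and 1 false discovery rate (FDR) in the authors' deposited table. The Score is minus the base 10 logarithm of a robust rank aggregation (RRA) value, which summarises how far the guides of a gene sit together at one end of the ranking of all guides. It was given a negative sign for depleted and a positive sign for enriched genes. A Score measures evidence and is not a fold change, so a Score of larger size says that the guides of the gene moved together more clearly, not that they moved further. The deposited table holds no value per library, and guide counts of single libraries were not used. The Scores therefore carry no SD, no depth is given, and the FDR is the only measure of error. A gene was called where its FDR was under 0.05.

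The guides of 3 genes are shown because the results turn on them. MEN1 encodes the protein that SNDX-5613 binds, PAXIP1 had the highest Score of the screen and GTF3C4 the lowest. Each guide is written 5′ to 3′, with the 20 bases of the protospacer in lower case and the adjacent motif that Cas9 requires, the PAM, in capitals. The MEN1 guides were as follows.
MEN1 guide 1: ggcggcgatgatagacaggtCGG
MEN1 guide 2: gaggctgttccatatgacatCGG
MEN1 guide 3: ccaggcatgatcctcagacaGGG
MEN1 guide 4: gcgctgtgaccgcaagatggAGG
MEN1 guide 5: atgacctgggacatctggaaAGG
MEN1 guide 6: actcaccctctaccacaaggTGG
MEN1 guide 7: actgtcgcaaccgcaatgtgCGG
On the hg38 build these matched chr11:64809846-64809868, chr11:64809723-64809745, chr11:64807996-64808018, chr11:64807629-64807651, chr11:64807178-64807200, chr11:64807007-64807029 and chr11:64806276-64806298, in coding exons 2 to 7 of the 10 exons of the canonical transcript of GENCODE release 44. The cuts fell between codons 83 and 334 of 610. The PAXIP1 guides were as follows.
PAXIP1 guide 1: ctgaagacagaagtgccctgTGG
PAXIP1 guide 2: tcttcataaataatcagacgAGG
PAXIP1 guide 3: gtccagctgtacggacactgAGG
PAXIP1 guide 4: tagataatccaggcacatggCGG
PAXIP1 guide 5: agagatgtgttactgcacacTGG
PAXIP1 guide 6: taccctgtgtcaacgcccagTGG
PAXIP1 guide 7: tcgcaccgtgaagttcctgaCGG
They matched chr7:154983303-154983325, chr7:154976201-154976223, chr7:154975753-154975775, chr7:154963747-154963769, chr7:154962420-154962442, chr7:154961014-154961036 and chr7:154954327-154954349, in coding exons 5 to 16 of 21, with cuts between codons 117 and 915 of 1069. The GTF3C4 guides were as follows.
GTF3C4 guide 1: cctggttatccaccgcacctCGG
GTF3C4 guide 2: tgaaagtctgactgaccgtgGGG
GTF3C4 guide 3: gttatgcttgacctgctgggTGG
GTF3C4 guide 4: agacaattggcagtgagtgaAGG
GTF3C4 guide 5: cttgtggaaacccacccatgAGG
GTF3C4 guide 6: tgtggagatgcacttgaccaGGG
GTF3C4 guide 7: agtatgatgacagaactgcaCGG
They matched chr9:132670901-132670923, chr9:132678033-132678055, chr9:132678392-132678414, chr9:132678879-132678901, chr9:132679404-132679426, chr9:132679653-132679675 and chr9:132679781-132679803, in coding exons 1 and 2 of 5, with cuts between codons 107 and 726 of 822. All 21 guides with their PAM had exactly 1 perfect match on the main chromosomes. The guides of 1 gene share their target and are not replicates of a condition.

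With SNDX-5613, 376 of 737 genes (51.0%) were depleted and 26 (3.53%) were enriched relative to the Initial libraries, and 335 were not called. Scores ran from -8.74 for GTF3C4 to 15.60 for PAXIP1, with a median of -0.52 over all genes. Of the depleted genes, 140 had a Score of -2 or below, 110 lay between -2 and -1, and 126 were called with a Score above -1. The weakest depleted call was ING3 at -0.50 (FDR 0.0496), just beyond PRDM2 and USP3, and the nearest genes that missed the threshold were H2AFY2 at -0.49, ATXN7 at -0.48 and CBX8 at -0.48. The enriched side behaved differently, since its weakest calls were NCOA6 at 4.22, BRCC3 at 4.42 and EPC1 at 4.63, and ING1, ZNF217 and HMGB1 missed the threshold at 4.12, 4.12 and 3.93. As many as 43 genes had a Score of 2 or more without a call. Counts of depleted and enriched genes therefore cannot be set against each other. With DMSO, 306 genes (41.5%) were depleted and 19 (2.58%) were enriched. The inhibitor and vehicle comparisons carry the same number tag in the table and may share their Initial libraries, so their values are given side by side, and differences between them are taken only from the deposited comparison of SNDX-5613 with DMSO.

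**Figure D1:**
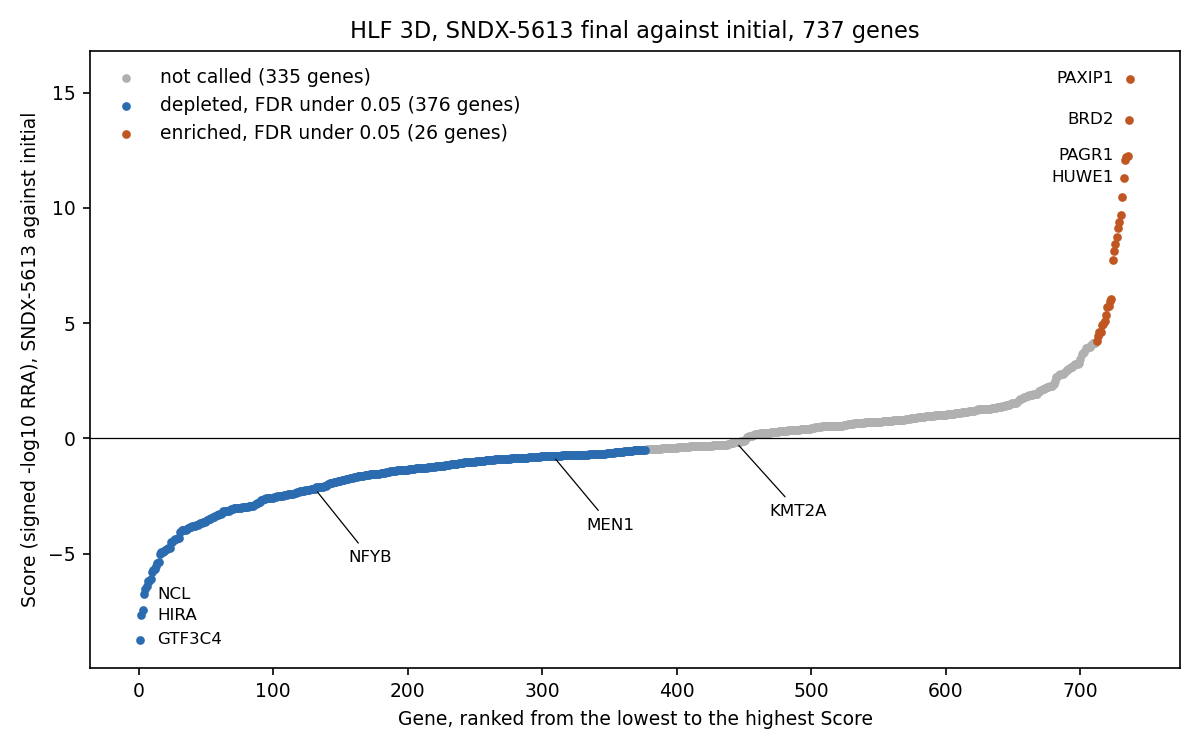
Score of each of the 737 genes in the SNDX-5613 final libraries against the Initial libraries (vertical axis, signed minus log10 of RRA), with genes ranked from lowest to highest on the horizontal axis. Blue points are the 376 depleted genes, orange points the 26 enriched genes and grey points the 335 that were not called, and the enriched genes rise from 4.22 to 15.60 over the last few ranks.

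Calls near the depletion threshold rested on small Scores. Of 32 genes that are chiefly used in germline, lymphoid or muscle cells, 7 were depleted, among them BRDT, a testis bromodomain protein, at -0.51. The median of these 32 genes was 0.37. Of 47 genes chosen as needed by most cell lines, 45 were depleted, and their median was -3.03. Both shares are to be read against the 51.0% of all genes that were depleted. The list of 47 was chosen with earlier results of these data known. It leaves out CUL3, UBE2D3 and HUWE1, which the study also counts as common essential. With SNDX-5613, CUL3 was not called at 3.66, and UBE2D3 and HUWE1 were enriched at 7.73 and 11.31.

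Genes that make or handle RNA were among the lowest. GTF3C4, a subunit of the factor that recruits RNA polymerase III, stood at -8.74 with SNDX-5613 and at -5.00 with DMSO. Nucleolin (NCL), an abundant nucleolar RNA-binding protein, stood at -6.77 and -4.04, and USP36, a nucleolar deubiquitinase, at -6.20 and -4.01. All 6 subunits of Elongator, the complex that modifies the wobble base of transfer RNAs, were depleted, beside 51.0% of all genes. Its catalytic subunit ELP3 had the third-lowest Score of the screen at -7.44, followed by ELP5 at -5.79, ELP6 at -4.82 and ELP4 at -3.01, and the list median was -3.92. With DMSO all 6 were depleted as well, with a median of -4.22, where 41.5% of all genes were depleted. The exosome, a nuclease complex that shortens RNA from its 3′ end, was depleted in all 9 of the subunits that were listed. They ran from EXOSC2 at -5.35 and EXOSC7 at -5.03 to EXOSC3 at -1.36, with a median of -3.49. With DMSO all 9 were depleted too, with a median of -3.43.

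Genes that assemble and copy chromatin formed the next group. HIRA, which deposits histone H3.3 outside replication, stood at -7.68 with SNDX-5613 and -6.28 with DMSO. TONSL, which reads newly made histone H4 at replication forks, stood at -6.52 and -5.94. The counts that follow are to be read beside the 51.0% of all genes that were depleted with SNDX-5613. Of 16 histone chaperones 14 were depleted, with a median of -2.24, among them CHAF1B of chromatin assembly factor 1 at -4.08 and ASF1A at -3.52. In the list for the replication checkpoint and homologous recombination, 13 of 14 genes were depleted, including the sliding clamp PCNA at -4.51, BRCA1 at -4.38 and the checkpoint kinase CHEK1 at -3.26. The mitotic list was depleted in 13 of 15 genes, with a median of -2.53. With SNDX-5613 Aurora B kinase (AURKB) was its lowest member at -6.10, followed by RCC1, which loads Ran with GTP on chromosomes, at -5.53. With DMSO these genes stood at -2.95 and -4.77.

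Among chromatin-modifying complexes, the MSL and NSL acetyltransferase complexes and the INO80 remodeller had the lowest medians. Over all genes, 51.0% were depleted with SNDX-5613. In MSL and NSL, 10 of 11 genes were depleted, with a median of -3.0. They included MCRS1 at -6.41, the acetyltransferase KAT8 at -4.94, HCFC1 at -4.78 and MSL1 at -3.26. In INO80, 11 of 14 genes were depleted, with a median of -2.82, among them the ATPases RUVBL1 at -3.99 and INO80 at -3.75 and the subunit NFRKB at -3.98. MCRS1 belongs to both lists. The arginine methyltransferases PRMT1 and PRMT5 stood at -6.17 and -5.70 with SNDX-5613 and at -4.29 and -2.76 with DMSO, and WDR77, the partner of PRMT5, at -3.40 and -1.81. TEAD3, a transcription factor that pairs with YAP1, stood at -5.68 and -1.50, the largest gap of Scores among the 15 lowest genes. None of those 15 genes was called between SNDX-5613 and DMSO, where their Scores ran from -2.12 for AURKB to 1.45 for ELP3, and that comparison gave TEAD3 a Score of -1.37 with an FDR of 0.64.

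Other lists lay nearer to the whole library, where 51.0% of genes were depleted with SNDX-5613 and 41.5% with DMSO. In PRC2, the complex that methylates lysine 27 of histone H3, 7 of 11 genes were depleted, led by its core subunit EED at -4.88, while the accessory subunit JARID2 was enriched at 9.69. In PRC1, which ubiquitinates histone H2A, 14 of 24 genes (58.3%) were depleted with SNDX-5613 and 7 with DMSO, with medians of -0.66 and 0.50. The medians over all genes were -0.52 and -0.45. The depleted PRC1 members included PCGF5 at -2.51 and BCOR at -2.24, and no PRC1 gene was called between inhibitor and vehicle. In BAF and PBAF, 11 of 23 genes were depleted, led by ARID1A at -3.94, and DPF2 was enriched at 8.14. In NuRD, 9 of 14 were depleted, among them RBBP4 at -3.85 and the ATPase CHD4 at -3.0. Lists with little depletion were the lysine demethylases of the KDM4, KDM5 and KDM6 families, with 1 of 11 depleted, the AMPK subunits, with 1 of 7, and the genes for lysine 9 methylation of histone H3 and its reader HP1, with 3 of 12, of which TRIM28 was the lowest at -2.31. Of 38 lists, 23 had over 50% of their members depleted, a cut that lies close to the 51.0% depleted over all genes. The lists overlap in members, and no test of a list was made.

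**Figure D2:**
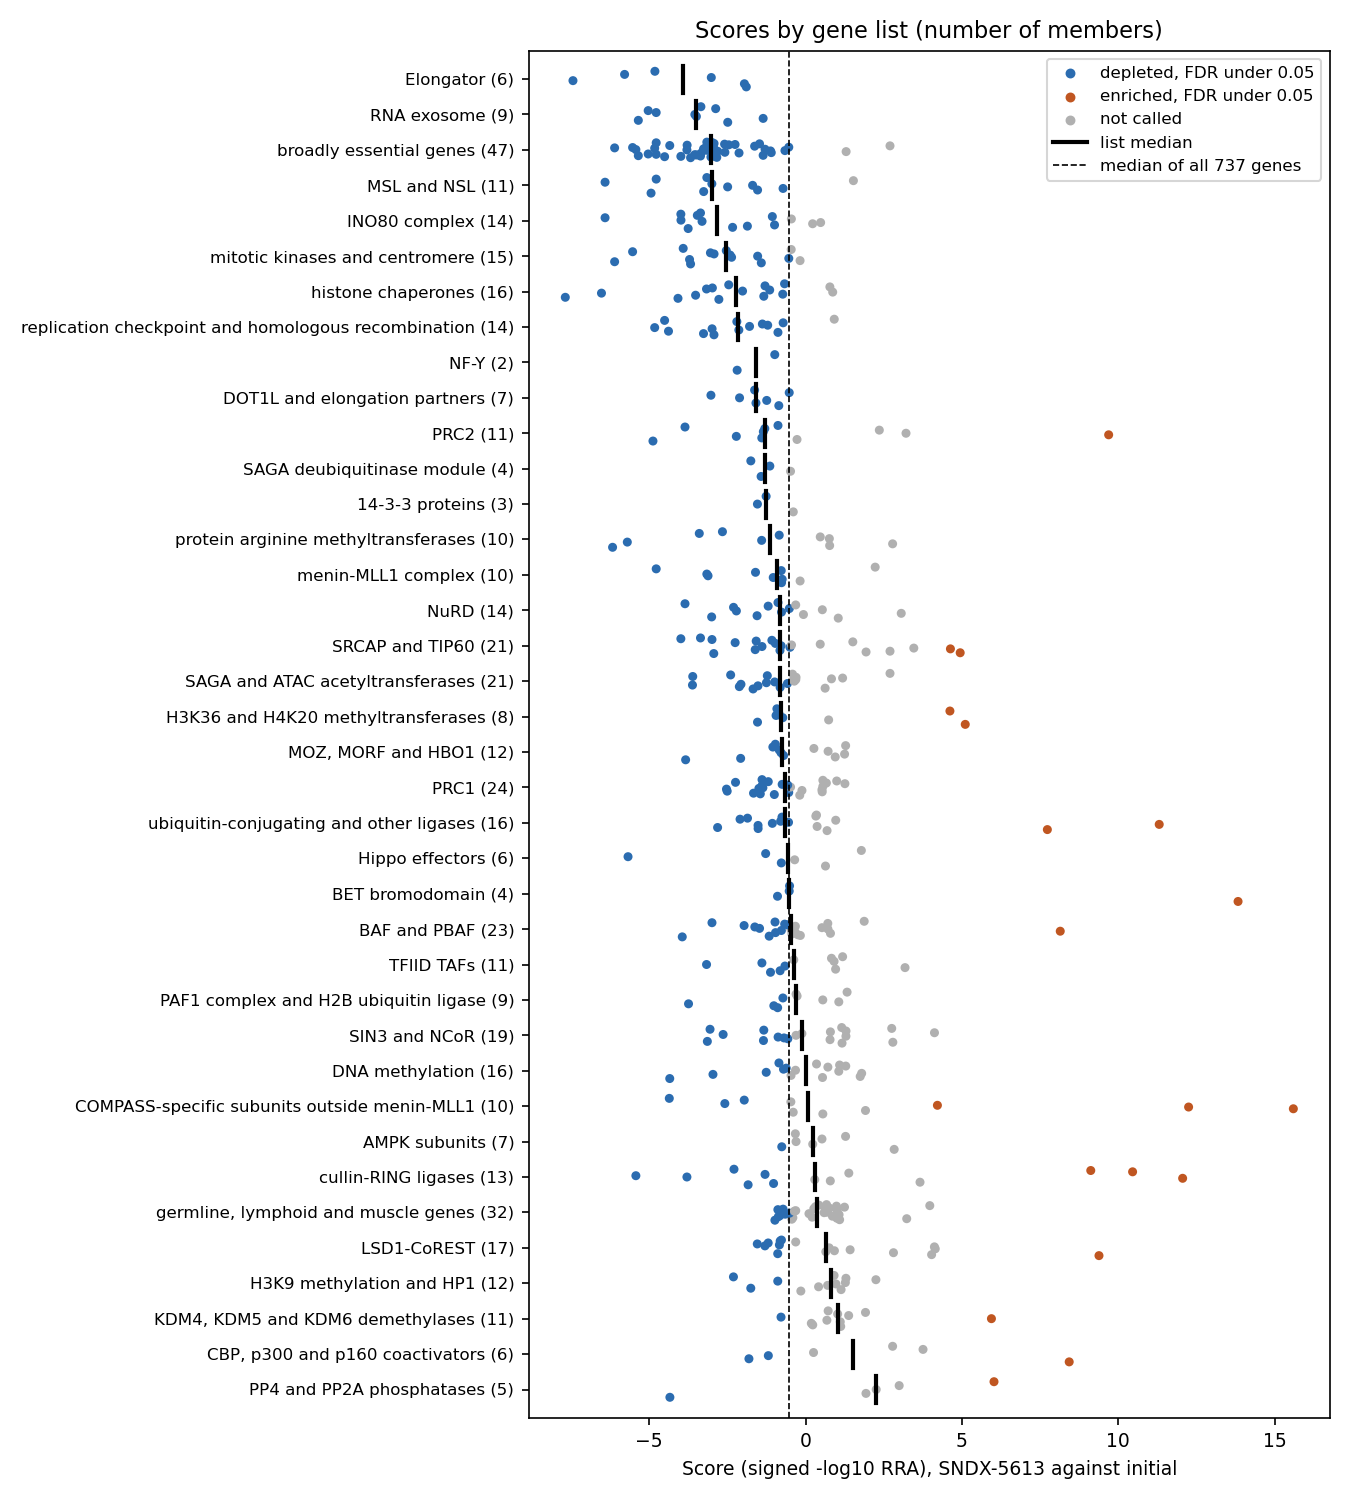
Scores of the members of 38 gene lists in the SNDX-5613 final libraries against the Initial libraries (horizontal axis, signed minus log10 of RRA), 1 point per gene, with list medians as black bars and the median of all 737 genes as a dashed line. Lists are ordered by median, from Elongator at -3.92 to the PP4 and PP2A phosphatases at 2.26, and the enriched genes are single members scattered over several lists.

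The highest Score belonged to PAXIP1, and the third-highest to PAGR1, whose protein binds that of PAXIP1. PAXIP1 encodes PTIP and PAGR1 encodes PA1, subunits that are found with the MLL relatives KMT2C and KMT2D. PAXIP1 stood at 15.60 with SNDX-5613 and 4.19 with DMSO (FDR 0.00026 and 0.052), and PAGR1 at 12.25 and 2.59 (FDR 0.00026 and 0.54). Both were higher with SNDX-5613 than with DMSO, with Scores of 12.12 and 6.83 (FDR 0.00046 for each). That comparison uses the same inhibitor libraries by which the highest genes were chosen. Its positive sign is therefore partly fixed by the choice, here and for the other highest genes below. NCOA6, another subunit of the KMT2C and KMT2D complexes, was enriched at 4.22 (FDR 0.049) but was not called between inhibitor and vehicle (Score 1.19, FDR 0.31). The methyltransferases themselves were not called, with KMT2C at 0.55 and KMT2D at -0.39, nor was the demethylase KDM6A of the same complexes at 1.92. Of the subunits of the SETD1 complexes, WDR82 at -4.36, SETD1A at -2.58 and CXXC1 at -1.96 were depleted, and SETD1B at -0.47 was not called (FDR 0.059).

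Components of ubiquitin ligases made up a second set of enriched genes. CUL5, the scaffold of a family of cullin-RING ligases, stood at 12.06 with SNDX-5613 and 14.37 with DMSO. KEAP1, the CUL3 adaptor that marks NRF2 for degradation, stood at 10.46 and 8.89, and SPOP, another CUL3 adaptor, at 9.12 and 8.46. The conjugating enzyme UBE2D3 stood at 7.73 and 5.36. These 4 genes were enriched under either condition and were not called between them. HUWE1, a large HECT-type ligase, differed from them. It stood at 11.31 with SNDX-5613 and at 2.86 with DMSO, where it was not called, and its Score between inhibitor and vehicle was 5.78 (FDR 0.00046). Of the 13 genes in the cullin-RING list, 6 were depleted, including SKP1 at -5.43, and 3 enriched. UBE2D3 and HUWE1 come from the list of ubiquitin-conjugating and other ligases. There 9 of 16 genes were depleted and 2 enriched, with a median of -0.65, beside 51.0% depleted over all genes.

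The remaining genes among the 15 highest act in transcription and signalling. BRD2, a BET bromodomain protein that reads acetylated histones, stood at 13.83 with SNDX-5613 and 9.41 with DMSO, and was higher with the inhibitor (Score 4.40, FDR 0.0037). Its relative BRD3 was depleted, at -0.90. ADNP, a zinc finger protein that works with the remodeller CHD4, stood at 12.18 and 3.99, with a Score of 7.44 between the conditions. The acetyltransferase CREBBP stood at 8.43 and 1.06, while its paralogue EP300 was depleted in both, at -1.81 and -3.18. The demethylase KDM1A stood at 9.38 and 6.66. The kinase DAPK3 stood at 8.73 and 3.85 and the phosphatase catalytic subunit PPP2CA at 6.02 and 2.03. The other 11 enriched genes were KDM5A, DNAJC2, SIRT6, NIPBL, NSD1, EP400, HDAC8, EPC1, SUV420H1, BRCC3 and NCOA6, with Scores from 5.94 down to 4.22.

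The menin-MLL1 complex was depleted with SNDX-5613 in 8 of 10 members, with a median of -0.91, against 9 of 10 and -2.29 with DMSO. Over all genes, 51.0% were depleted with SNDX-5613 and 41.5% with DMSO. Most members are genes that the study discusses, while PSIP1, HCFC1 and HCFC2 were added to them here. The list was chosen with earlier results of these data known and is not independent evidence of its direction. MEN1 itself stood at -0.77 with SNDX-5613 (FDR 0.018) and at -3.46 with DMSO. It was 308th from the lowest of 737 genes under the inhibitor. KMT2A was not called with SNDX-5613, at -0.17 (FDR 0.25), and was depleted with DMSO at -3.75. DPY30 stood at -0.78 and -3.96. These 3 genes were the members called between inhibitor and vehicle, all higher with SNDX-5613, with Scores of 6.91 for MEN1 and 5.87 for KMT2A (FDR 0.00046 for each) and 2.84 for DPY30 (FDR 0.024). Over all genes, 4.07% were called higher and 0.543% lower in that comparison.

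The other core subunits kept low Scores under the inhibitor. WDR5 stood at -3.16 with SNDX-5613 and -2.66 with DMSO, ASH2L at -3.12 and -2.28, and RBBP5 at -1.60 and -0.82. These subunits are shared with the other MLL and SETD1 complexes, as is DPY30, which was called higher with SNDX-5613 than with DMSO. HCFC1, a host cell factor that also belongs to the NSL list, was the lowest member with SNDX-5613 at -4.78 and stood at -2.30 with DMSO, where DPY30 was the lowest. PSIP1, which links menin to nucleosomes, stood at -1.03 and -1.90. KMT2B, the relative of MLL1 that also binds menin, stood at -0.75 in both, and HCFC2 was not called in either, at 2.23 and 1.60. None of these 7 members was called between the conditions, where their Scores ran from -1.37 for HCFC1 to 2.05 for PSIP1.

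NF-Y is a trimeric transcription factor that binds CCAAT boxes in promoters, and 2 of its subunits were in the library. NFYB stood at -2.19 with SNDX-5613 (FDR 0.00019) and at 1.10 with DMSO, where it was not called. Between inhibitor and vehicle its Score was -2.23 with an FDR of 0.25, so the difference did not pass the threshold. NFYC stood at -0.98 and -0.77, depleted in both, and at 0.22 between them (FDR 0.88). NFYB ranked 131st and NFYC 254th from the lowest with SNDX-5613. As NFYB was singled out by the study on these samples, its direction is not independent evidence.

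**Figure D3:**
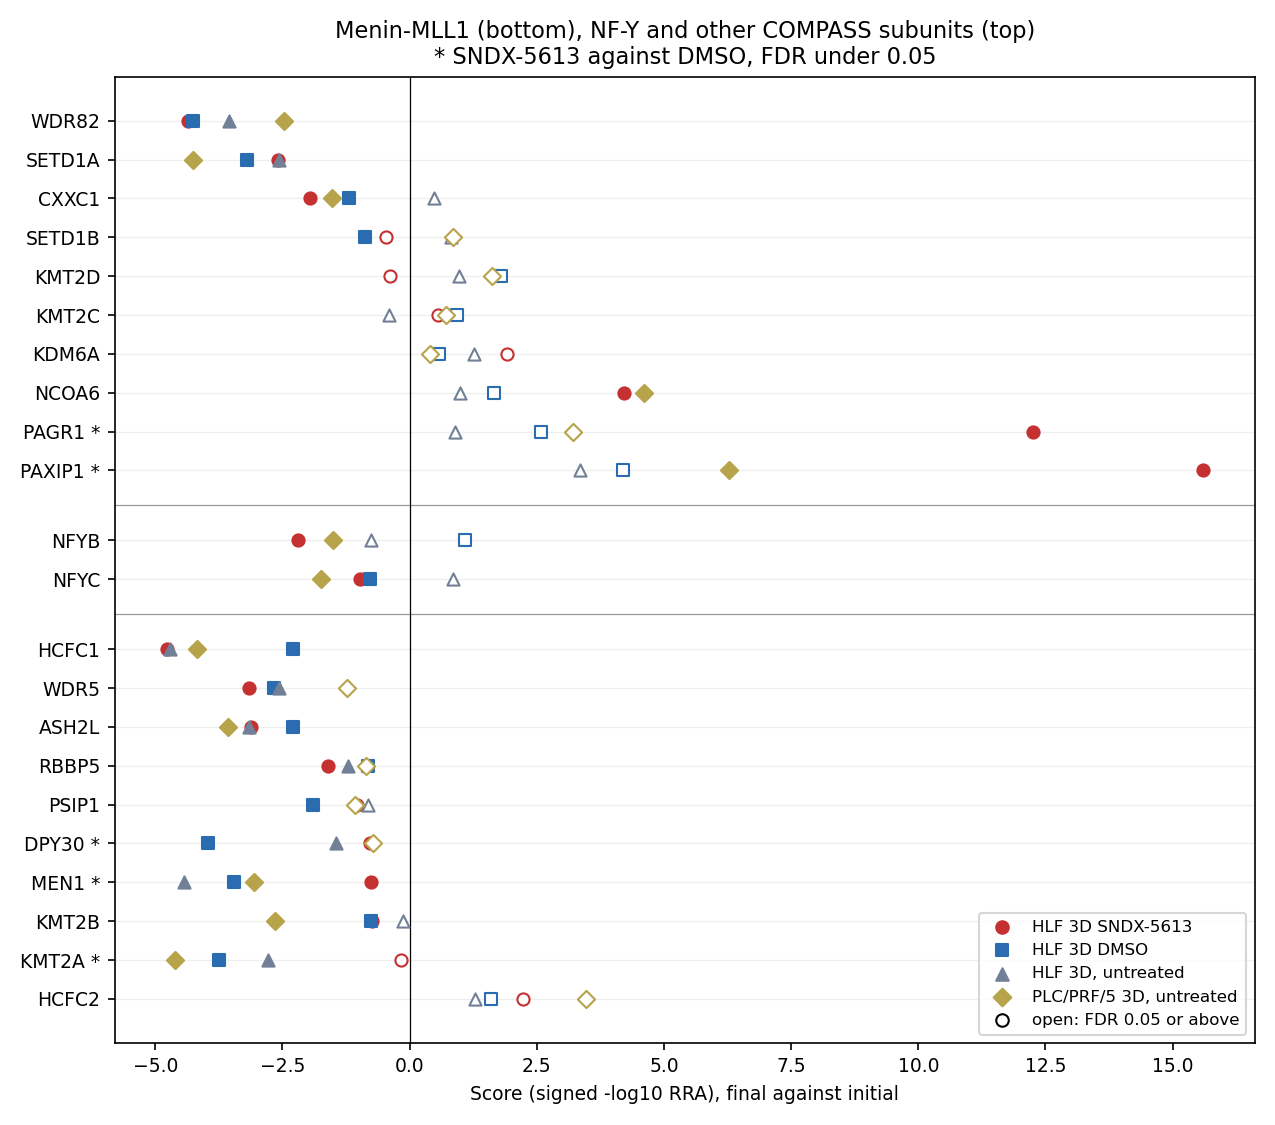
Scores of final against Initial libraries (horizontal axis, signed minus log10 of RRA) for the menin-MLL1 members at the bottom, NF-Y in the middle and the other COMPASS-type subunits at the top, in HLF 3D with SNDX-5613 (red circles), with DMSO (blue squares), in untreated HLF 3D (grey triangles) and in untreated PLC/PRF/5 3D (yellow diamonds). Filled symbols have an FDR under 0.05, and asterisks mark genes called between SNDX-5613 and DMSO, among which MEN1 and KMT2A lie near 0 only under the inhibitor.

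The comparison of SNDX-5613 with DMSO at day 28 called 30 genes higher and 4 lower. Of the 30 higher genes, 11 were enriched over the Initial libraries with SNDX-5613, 9 were depleted and 10 were not called. Both comparisons use the same 3 inhibitor libraries. The methods text describes replicates in general as dishes split into treated and untreated cells and does not mention the screens, so inhibitor and vehicle libraries may be paired, and whether the deposited FDRs took this into account is not stated. Among the genes not called over Initial with SNDX-5613, the corepressor scaffold SIN3A stood at 1.17 with the inhibitor and -3.29 with DMSO, with a Score of 4.62 between them. The acetyltransferase KAT7 stood at 0.95 and -1.74, with 4.15 between them. The TFIID subunit TAF8 stood at 0.91 and -1.74, with 3.74 between them. For these genes, depletion was called with the vehicle and not with the inhibitor. NSD1, a methyltransferase for lysine 36 of histone H3, was depleted with DMSO at -0.80 and enriched with SNDX-5613 at 5.11, with a Score of 4.51 between the conditions. DPF2, CREBBP, SIRT6, NIPBL and JARID2 were enriched with the inhibitor and not called with DMSO, and their Scores between conditions ran from 3.82 to 2.73.

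Some lists held several of the higher genes, to be read beside the 4.07% of all genes that were called higher. The list for DOT1L and its elongation partners had 3 of 7 members higher than with DMSO, among them the elongation factor SUPT6H at 3.23 and the kinase CDK9 at 2.76, although all 7 members were depleted with SNDX-5613 relative to Initial. TFIID had 3 of 11, TAF8, TAF4 at 3.27 and TAF6 at 2.84. PRC2 had 3 of 11, SUZ12 at 3.36, RBBP4 at 2.95 and JARID2. The SAGA deubiquitinase module had none of 4 called, with 3 of 4 members depleted with SNDX-5613 and a median of -1.28, against 4 of 4 and -3.31 with DMSO. Its lowest member with SNDX-5613 was ENY2 at -1.75, and with DMSO it was ATXN7L3 at -3.61. For CDK9, TAF6 and KAT8 the Score over Initial was lower with SNDX-5613 than with DMSO while the comparison between the conditions put them higher, so their direction is not settled.

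For the 4 genes that were lower with SNDX-5613 than with DMSO, the values over Initial are given side by side. The comparison between the conditions and that of DMSO with Initial use the same DMSO libraries, so a high Score with DMSO is partly fixed by the choice of these genes. None was called over Initial with the inhibitor. CUL3, the cullin that works with KEAP1 and SPOP, stood at 3.66 with SNDX-5613 (FDR 0.093) and 10.67 with DMSO, with a Score of -8.02 between them (FDR 0.0018). LEO1, a subunit of the PAF1 elongation complex, stood at 1.06 and 8.53, with -6.34 between them. The SUMO protease SENP1 stood at -0.31 and 3.78, where the latter was not called (FDR 0.097), with -4.51 between them. SMEK1, a regulatory subunit of phosphatase PP4, stood at 2.26 and 6.85, with -4.48 between them. PPP4C, the catalytic subunit of the same phosphatase, was depleted in both, at -4.34 and -1.49, and was not called between them (Score -2.40, FDR 0.23).

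**Figure D4:**
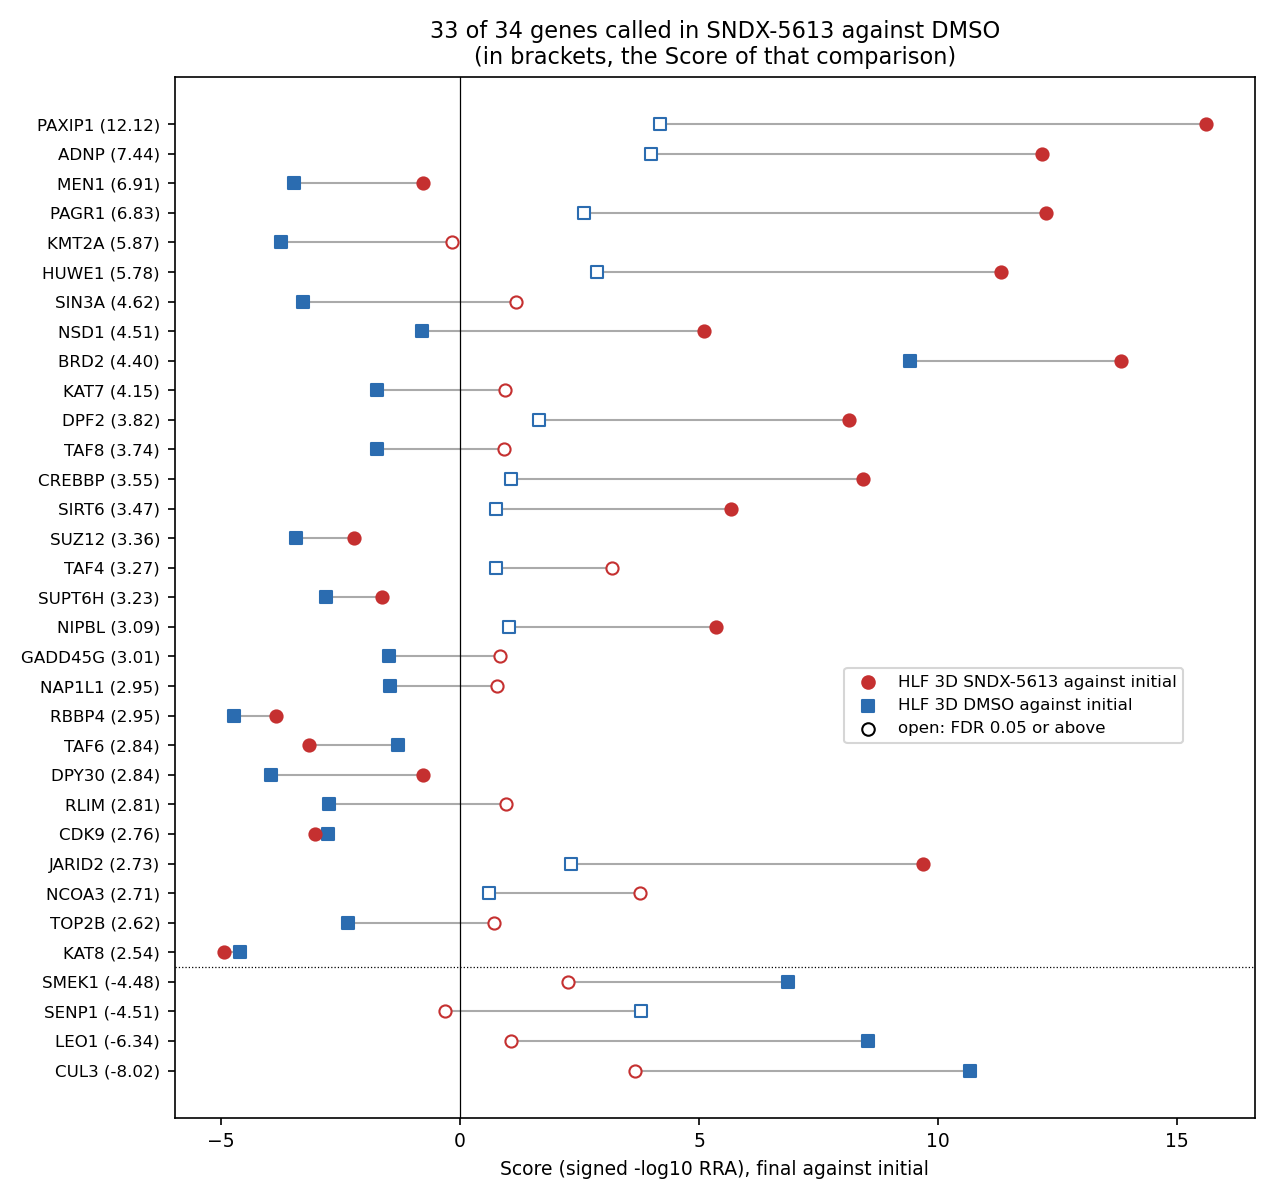
Scores over Initial (horizontal axis, signed minus log10 of RRA) with SNDX-5613 (red circles) and DMSO (blue squares) for 33 of the 34 genes called between the conditions, with filled symbols for an FDR under 0.05 over Initial and the Score between the conditions in brackets. The 29 genes above the dotted line were higher with SNDX-5613, from PAXIP1 at 12.12 to KAT8 at 2.54, and the 4 below it were lower.

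The Scores with SNDX-5613 were also set beside those of spheroid screens without inhibitor or vehicle. In untreated HLF 3D, 200 genes (27.1%) were depleted and 8 (1.09%) were enriched, and in untreated PLC/PRF/5 3D, another hepatocellular carcinoma line, 175 (23.7%) and 17 (2.31%). Both comparisons carry other number tags than those of inhibitor and vehicle. With DMSO, which holds no inhibitor, 306 genes (41.5%) were depleted in HLF 3D. Differences between the untreated and the inhibitor screen therefore cannot be assigned to the inhibitor, and their cause was not tested. MEN1 was depleted at -4.43 in the HLF line and -3.07 in the PLC/PRF/5 line, and KMT2A at -2.79 and -4.60. PAXIP1 was not called in untreated HLF spheroids at 3.36 and was enriched in those of PLC/PRF/5 at 6.28, and PAGR1 was called in neither, at 0.88 and 3.21. CUL3 was enriched in both, at 11.62 and 9.04. GTF3C4 was depleted in both, at -4.84 and -6.05, and HIRA at -5.98 and -4.31. The PLC/PRF/5 screen shares no library with the inhibitor screen. Of the 376 genes depleted in HLF with SNDX-5613, 152 (40.4%) were depleted in PLC/PRF/5 3D, which is 86.9% of the 175 depleted there. Of the 26 enriched genes, 11 (42.3%) were enriched in PLC/PRF/5 3D, 64.7% of the 17 enriched there, among them PAXIP1, DPF2, NIPBL, HUWE1 and DAPK3. The line and the treatment differ together between these screens and cannot be told apart.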

How the data were processed

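Genomic DNA was amplified over the guide and sequenced. MAGeCK was run by the authors to count guides and contrast the libraries, with non-targeting guides as controls. No version or genome build is given in the sources used here. In the deposited table there is 1 Score (signed minus log10 of RRA) and 1 FDR, a p-value adjusted for the number of genes, per gene and comparison. All 737 Scores, raised back from the log10 scale, matched an RRA value with 5 significant digits (tolerance 2e-09). The table covers 9 comparisons, of which 5 were used, and no counts. Guide counts of single libraries were not used, so no depth is given and no interval or SD was computed. Groups came from the labels, which do not say whether replicates were separate cultures. The methods describe, for the study in general, dishes divided between treated and untreated cells, so inhibitor and vehicle libraries may be paired. The replicates may differ only technically, which the deposited FDRs, given per gene and not per library, cannot settle.

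Calls at an FDR under 0.05, ranks and list medians were computed with pandas 2.3.3. Counts of calls, over all genes and within a list, were checked on simulated data with known answers. Ranks and medians were not checked in this way. Guides came from the study's library design and were matched to hg38. Members and lists were chosen with earlier results of these data known. Named genes were all menin-MLL1 and NF-Y members, the 15 lowest and 15 highest called genes, up to 12 each way between SNDX-5613 and DMSO, up to 4 per list by size of Score and 3 on either side of each threshold. Other genes were named after their values were seen. A few genes and their values are not reported here.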

Additional observations from a re-analysis of the deposited data

Results flagged for a closer look

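The inhibitor and the vehicle gave different results for 34 genes, by the deposited comparison of SNDX-5613 with DMSO at an FDR under 0.05. Of the 30 genes that were higher with SNDX-5613, 29 are given here with their Scores in that comparison. The first 10 were PAXIP1 at 12.12, ADNP at 7.44, MEN1 at 6.91, PAGR1 at 6.83, KMT2A at 5.87, HUWE1 at 5.78, SIN3A at 4.62, NSD1 at 4.51, BRD2 at 4.40 and KAT7 at 4.15. The next were DPF2 at 3.82, TAF8 at 3.74, CREBBP at 3.55, SIRT6 at 3.47, SUZ12 at 3.36, TAF4 at 3.27, SUPT6H at 3.23, NIPBL at 3.09 and GADD45G at 3.01. The last were NAP1L1 at 2.95, RBBP4 at 2.95, TAF6 at 2.84, DPY30 at 2.84, RLIM at 2.81, CDK9 at 2.76, JARID2 at 2.73, NCOA3 at 2.71, TOP2B at 2.62 and KAT8 at 2.54. The 4 genes that were lower were SMEK1 at -4.48, SENP1 at -4.51, LEO1 at -6.34 and CUL3 at -8.02. The FDRs of the higher genes ran from 0.00046 to 0.048 and those of the lower genes from 0.0018 to 0.016.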

How the results depend on the processing

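No paired analysis was possible because the deposited Scores and FDRs hold no value per library and counts per library were not used here. Leaving out a replicate was not run for the same reason. With SNDX-5613 against Initial, requiring a Score size of at least 1 beside the FDR left 250 depleted genes, and a size of at least 2, with or without the FDR, left 140. The enriched genes numbered 69 at a Score of at least 2 whatever the FDR. At FDR under 0.01 and under 0.10 these counts stayed within 1.5 times the main ones (267 and 409 depleted, 22 and 37 enriched). With DMSO, a size of at least 2 left 132 depleted genes with or without the FDR, and 59 were at 2 or above whatever the FDR. Between SNDX-5613 and DMSO the counts depended most on the threshold: 10 higher and 2 lower at FDR under 0.01, 51 and 7 at FDR under 0.10, and 53 and 49 at a size of 2 whatever the FDR. Of the 34 genes called there, 22 were not called at FDR under 0.01. Lists with over 50% of members depleted numbered 13 at FDR under 0.01 in place of 23. Lists with a median under that of all genes numbered 23, against 20 by the mean and 21 of 35 with members in no other list. Taking the difference of the Scores over Initial (SNDX-5613 minus DMSO) in place of the deposited comparison turned the sign for CDK9 (-0.27), KAT8 (-0.33) and TAF6 (-1.88), and the cause was not tested.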
